A study of Nothobranchius furzeri with 25 samples.

Results

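The genes described here are the BCL2 family and its close partners in cell death, as measured in the aging brain of the short-lived killifish Nothobranchius furzeri. The symbols sought were BBC3, BAD, BAX, BAK1, BOK, BID, BCL2, BCL2L1 and APAF1, with every copy that carries a name in the files. The choice of symbols uses no measured value, though it was made with earlier results of these data known. Names were tied to contigs (assembled transcripts) by matching relative levels over the 5 ages, a step that does use measured values. The search gave 8 contigs of 7 symbols, among 1994 contigs with a name and 18228 contigs in all. All 8 passed the filter on low counts that left 16484 contigs for testing. BAK1 and BID had no row among the names used here. The names BCL2 (1 OF 2), BAD (2 OF 2) and BCL2L1 (3 OF 3) imply further copies of these genes. The other copies of BCL2 and BAD were not found either. For BCL2L1, 2 copies were found where the name implies 3. Whole brains of male fish of the strain MZM 04/10 were taken at 5, 12, 20, 27 and 39 weeks, which the study describes as sexual maturity, young adult, adult, median lifespan and old age. Each age had 5 animals, with 1 library per animal, and the labels name no transgene, deletion or treatment. All animals were fasted and were killed at the same time of day. In 6 libraries the title carries the mark w0w1, which no source used here explains, and results are given without them where that ends a call. Nothing in the files marks a sequencing batch.

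Programmed cell death through mitochondria is decided by proteins that bind each other. BCL2 and BCL2L1 (Bcl-xL) keep the pore formers BAX and BAK1 in check, BH3-only proteins such as BBC3 (PUMA) and BAD occupy the survival proteins, and once the outer membrane opens, cytochrome c joins APAF1 to form the apoptosome that activates caspase-9. BOK is a further relative that can permeabilize membranes by itself. In rodents, Apaf1 is high while the brain is formed and low in the adult, and Bcl-xL helps to keep neurons alive. The fish brain goes on growing and making neurons in adult life, and many fish genes have copies from an old genome duplication, which is why the names here carry letters or a copy number.

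The 25 libraries held 15690560 to 26378519 counted reads, and values are given as CPM, the count scaled to a common library size after TMM normalization. CPM is not scaled to length, so levels are compared between ages and not between genes. The neuron markers ATP1A3A, ATP1A3B, BSN and ATCAYA summed to 2221 to 3936 CPM in all libraries, so the labelled tissue was evident in each, while 4 markers of skeletal muscle summed to at most 35.9 CPM. At 5 weeks, 5 genes of dividing cells (AURKA, ASPM, ANLN, BUB1 and BUB1B) summed to 86.3 to 150.2 CPM, above the 43.8 to 62.5 CPM of every later library. The progenitor genes ASCL1A and ASCL1B summed to 21.0 to 37.9 CPM at 5 weeks and 4.23 to 15.7 CPM later. Markers of other cell types also stood at other levels at 5 weeks. The oligodendrocyte gene ASPA ranged from 22.9 to 29.9 CPM at 5 weeks and from 35.5 to 83.6 CPM later. In sum, 3 microglial genes held 14.7 to 19.7 CPM at 5 weeks and 26.5 to 59.2 CPM at 39 weeks. AIF1 and C1QC passed, and C1QB, with an adjusted p of 0.101 (edgeR), did not. The sum of 2 red blood cell genes was 75.7 to 142.9 CPM at 5 weeks and 8.75 to 95.7 CPM at 39 weeks. ALAS2 passed (adjusted p = 0.00245, edgeR) and BA1 did not (0.0523). Of 5 neuron genes, ATP1A3A (log2 fold change -0.27) and ATP1A3B (-0.30) passed as lower at 39 than at 5 weeks. ATCAYA (0.34) passed as higher, and the BSN copies did not pass. Of 4 endothelial and vessel wall genes 0 passed from 5 to 39 weeks. Of 3 astroglial genes only ALDH1L1 passed from 5 to 39 weeks, with a rise of 0.67 on the log2 scale (adjusted p = 0.0233, edgeR). AQP4 (log2 fold change 0.107, adjusted p = 0.671) and ATP1A2A (0.049, adjusted p = 0.925) did not pass. ALDH1L1 did not pass either when all ages were tested together. No marker gene was at 0 in every library of an age. In RNA from a whole brain, fewer cells of a type and less RNA per cell cannot be told apart. The part of these cell types in the changes below was not tested.

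Age changed 6 of the 8 members when all 5 ages were tested together (edgeR quasi-likelihood test, adjusted p under 0.05), beside 41.8% of all genes tested. The 6 were APAF1 (adjusted p = 1.58e-05), BCL2L1 (3 OF 3) (7.58e-05), BBC3 (0.00319), BAD (2 OF 2) (0.0176), BCL2 (1 OF 2) (0.0218) and BOKA (0.0272). BAXA (0.147) and BCL2L1 (0.112) did not pass. The members did not move as a block. APAF1 passed as lower than at 5 weeks at every later age, and BAD (2 OF 2) at 20 and 39 weeks. BCL2L1 (3 OF 3) passed as higher than at 5 weeks at every later age, and BBC3 at 20, 27 and 39 weeks. BCL2 (1 OF 2) passed as higher than at 5 weeks at 20 and 27 weeks, and BOKA at 12 and 27 weeks. At 39 weeks the means of BCL2 (1 OF 2) and BOKA were near those of 5 weeks. For neither gene did a fall from 12, 20 or 27 to 39 weeks pass. Of the 80 tests of a member between 2 ages (8 members in 10 pairs of ages) 19 passed, 18 of them in pairs that include 5 weeks. These pairs share the 5-week libraries. Of all genes tested, 23.6% to 36.6% passed in the pairs with 5 weeks, 12.5% from 12 to 39 weeks and 0.00% to 0.989% in the other adult pairs. Nothing particular to the members is read from this split.

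**Figure D1:**
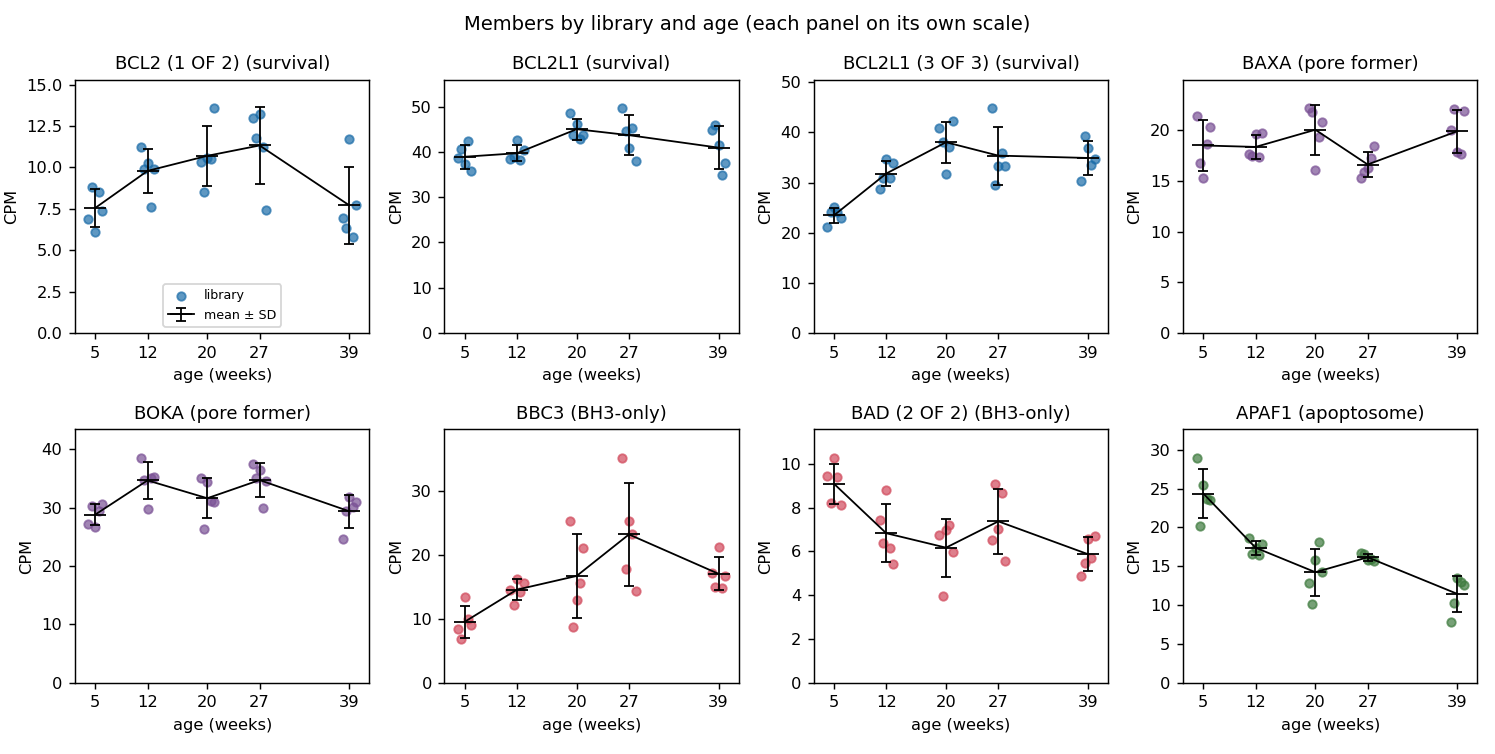
CPM of the 8 members (y axes, each on its own scale starting at 0) against age in weeks (x axes); points are libraries, 5 per age, and black marks are means with SD. APAF1 lies between 20.2 and 29.0 CPM at 5 weeks and between 7.88 and 13.5 CPM at 39 weeks, and BBC3 spreads from 14.4 to 35.3 CPM at 27 weeks.

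Among the survival genes, the BCL2L1 copy named BCL2L1 (3 OF 3) (contig Nofu_gene_3_0001585) changed most clearly. Its 5 libraries at 5 weeks held 21.1, 22.9, 24.0, 24.2 and 25.1 CPM. At 12 weeks they held 28.6, 30.8, 30.9, 33.9 and 34.7 CPM, and at 20 weeks 31.7, 37.1, 38.2, 40.9 and 42.3 CPM. At 27 weeks the values were 29.5, 33.2, 33.3, 35.9 and 44.9 CPM, and at 39 weeks 30.3, 33.4, 34.6, 37.0 and 39.2 CPM. All 20 later libraries therefore lay above all 5 libraries of 5 weeks. The rise was 1.36-fold to 12 weeks (log2 fold change 0.44, SE 0.10, adjusted p = 0.00257), 1.62-fold to 20 weeks (0.70, SE 0.10, adjusted p = 1.35e-05), 1.51-fold to 27 weeks (0.59, SE 0.10, adjusted p = 7.39e-05) and 1.49-fold to 39 weeks (0.57, SE 0.10, adjusted p = 8.54e-05). In the order of the means (5, 12, 39, 27 and 20 weeks) only the neighbours 5 and 12 weeks passed the test. These 4 calls held in every alternative run and with any library left out. The contig shares its zebrafish counterpart with BCL2L1 and is not the best match of that gene in both directions. Only reads that mapped uniquely were counted, and whether reads of the copies were split unevenly between them was not tested.

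The other copy found, BCL2L1 (Nofu_gene_3_0001584), was much steadier. Its mean was 38.9 ± 2.62 CPM in the 5-week group (SD, n = 5 at each age), then 39.7 ± 1.81 in the young adult, 45.0 ± 2.35 in the adult, 43.7 ± 4.47 at median lifespan and 40.9 ± 4.70 in old age. The 5 libraries of 20 weeks (42.9, 43.7, 43.7, 46.2 and 48.6 CPM) lay above those of 5 weeks (35.7, 37.2, 38.7, 40.6 and 42.4 CPM), a difference of 1.16-fold (log2 0.21, SE 0.08, adjusted p = 0.0446). This call is a thin one, since 18 of 33 alternatives lost it, among them library totals alone (adjusted p = 0.0783), no filter (0.0501), limma on RPKM (0.0781), leaving out the 6 libraries marked w0w1 in their titles (0.0532) and leaving out any of 14 single libraries, namely replicates 1, 2, 3 or 5 of 5 weeks, 1, 2 or 5 of 12 weeks, 1, 2, 3 or 5 of 20 weeks, 2 or 4 of 27 weeks and 3 of 39 weeks (up to 0.113, without replicate 1 of 5 weeks). From 5 to 27 weeks BCL2L1 passed only without replicate 5 of 27 weeks (0.0399). No neighbours in the order of the means passed the test, and from 5 to 39 weeks the log2 difference was 0.07 (SE 0.08, adjusted p = 0.511).

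BCL2 (1 OF 2) (Nofu_gene_3_0001583), a copy of the founding survival gene of the family, had a rounded course. At 5 weeks the libraries held 6.11, 6.89, 7.38, 8.53 and 8.84 CPM, at 12 weeks 7.61, 9.92, 9.93, 10.3 and 11.2 CPM, and at 20 weeks 8.50, 10.4, 10.5, 10.5 and 13.6 CPM. At 27 weeks they held 7.40, 11.3, 11.8, 13.0 and 13.2 CPM. At 39 weeks they held 5.79, 6.36, 6.97, 7.75 and 11.7 CPM. In every later age at least 1 library fell within the range of 5 weeks, and at 39 weeks 3 of 5 did. The gene rose 1.42-fold from 5 to 20 weeks (log2 0.50, SE 0.18, adjusted p = 0.0333) and 1.50-fold from 5 to 27 weeks (0.58, SE 0.18, adjusted p = 0.0128). The mean was 1.47 times higher at 27 than at 39 weeks, a difference that did not pass (log2 fold change -0.55, SE 0.18, adjusted p = 0.0895). It passed with DESeq2 (adjusted p = 0.0449), without replicate 5 of 27 weeks (0.0265), which is the low library of that age, and without replicate 3 of 39 weeks (0.0142), which is the high one. From 12 to 39 weeks it passed only without that same library (adjusted p = 0.0284, beside 0.206 with it), and so did the difference from 20 to 39 weeks (0.0455). Between 5 and 39 weeks the log2 difference was 0.03 (SE 0.18, adjusted p = 0.917).

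The call from 5 to 20 weeks was lost without replicate 1 (adjusted p = 0.0940), 3 (0.0834) or 5 (0.0553) of 5 weeks, without replicate 4 (0.0512) or 5 (0.110) of 20 weeks, and without the 6 w0w1 libraries (0.132). The call for BCL2 (1 OF 2) over all ages was lost without replicate 1 of 5 weeks (0.0521) and without the 6 w0w1 libraries (0.121). The call from 5 to 27 weeks held throughout. No neighbours in the order of its means (5, 39, 12, 20 and 27 weeks) passed the test. Its counts were 101 to 259 reads per library.

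The pore formers showed small differences. BAXA (Nofu_gene_3_0001523), the fish copy of BAX, held 18.5 ± 2.50 CPM at 5 weeks (SD, n = 5) and, in the order of the later ages, 18.3 ± 1.19, 20.0 ± 2.47, 16.6 ± 1.22 and 19.9 ± 2.12 CPM. It passed in none of the 10 pairs of ages, and the log2 difference from 5 to 39 weeks was 0.10 (SE 0.10, adjusted p = 0.444). From 20 weeks to 27 weeks, its lowest age, the log2 fold change was -0.27 (SE 0.10, adjusted p = 0.410), and from 27 to 39 weeks it was 0.26 (SE 0.10, adjusted p = 0.145).

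BOKA (Nofu_gene_3_0001739), a copy of BOK, held 26.7 to 30.6 CPM at 5 weeks. The ranges of the later ages, in their order, were 29.7 to 38.6, 26.4 to 35.1, 30.0 to 37.6 and 24.7 to 31.8 CPM. At 12, at 20 and at 27 weeks 4 of 5 libraries lay above all those of 5 weeks. The rise was 1.20-fold both to 12 weeks (log2 0.27, SE 0.09, adjusted p = 0.0280) and to 27 weeks (0.27, SE 0.09, adjusted p = 0.0188). The difference from 5 weeks did not pass at 20 weeks (0.13, SE 0.09, adjusted p = 0.255) or at 39 weeks (0.03, SE 0.09, adjusted p = 0.827). No neighbours in the order of the means (5, 39, 20, 12 and 27 weeks) passed the test.

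The BOKA calls are weak ones. The call from 5 to 12 weeks was lost with library totals alone (adjusted p = 0.0847), with limma on RPKM (0.148), without replicate 1 (0.0918) or 3 (0.0661) of 5 weeks, and without replicate 1 (0.0806), 2 (0.0504), 4 (0.0505) or 5 (0.0560) of 12 weeks. The call to 27 weeks was lost with limma (0.0918), without replicate 1 of 5 weeks (0.0837) and without replicate 1 of 27 weeks (0.0532). The call over all ages was lost with library totals (0.0637), limma (0.132) and without replicate 1 (0.0655) or 3 (0.0501) of 5 weeks. From 12 to 39 weeks BOKA did not pass (log2 fold change -0.24, SE 0.09, adjusted p = 0.0719), and it passed with DESeq2 (0.0490) and without replicate 3 of 12 weeks (0.0309), the low library of that age.

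BBC3 (Nofu_gene_3_0001533), a BH3-only gene that p53 switches on in mammals, had the widest swing and the widest scatter of the members. At 5 weeks the libraries held 6.84, 8.37, 8.99, 10.0 and 13.5 CPM, and at 12 weeks 12.1, 14.2, 14.6, 15.6 and 16.3 CPM. At 20 weeks the values ran from 8.73 over 13.0, 15.6 and 21.1 to 25.3 CPM, and at 27 weeks from 14.4 over 17.8, 23.3 and 25.4 to 35.3 CPM. At 39 weeks the libraries were closer together again, with 14.9, 15.1, 16.8, 17.3 and 21.3 CPM. The ages 27 and 39 weeks did not overlap with 5 weeks, whereas 2 libraries of 20 weeks lay within the range of 5 weeks. BBC3 rose 2.43-fold from 5 to 27 weeks (log2 1.28, SE 0.24, adjusted p = 0.000263), 1.75-fold to 20 weeks (0.81, SE 0.24, adjusted p = 0.0125) and 1.79-fold to 39 weeks (0.84, SE 0.24, adjusted p = 0.00838).

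The first step of BBC3, from 5 to 12 weeks, did not pass (1.53-fold, log2 0.61, SE 0.24, adjusted p = 0.0670), although 4 of 5 libraries of 12 weeks lay above all of 5 weeks. It passed in a fit of these 2 ages alone (0.0132), with DESeq2 (0.0409), without replicate 3 of 5 weeks, the library at 13.5 CPM (0.0306), and without replicate 1 (0.0481) or 2 (0.0379) of 20 weeks or replicate 1 of 27 weeks (0.0468). The call to 20 weeks was lost without replicate 1 of that age, its highest library (0.0546), and without the 6 w0w1 libraries (0.0873). The calls to 27 and to 39 weeks held in every alternative. The mean was 1.36 times higher at 27 than at 39 weeks, which did not pass (log2 fold change -0.45, SE 0.23, adjusted p = 0.272), and no neighbours in the order of the means (5, 12, 20, 39 and 27 weeks) passed the test. The SD of log2 CPM within ages, pooled over the ages, was 0.40 for BBC3, at the 83.2nd percentile of all genes tested, whose median was 0.20. It was largest at 20 weeks (0.60) and at 27 weeks (0.49) and was 0.16 at 12 weeks and 0.21 at 39 weeks. For BCL2L1 the pooled SD was 0.12, at the 11.2th percentile.

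BAD (2 OF 2) (Nofu_gene_3_0001480) belongs to the same BH3-only class, and its product is held inactive by phosphorylation in mammals. Its log2 difference from 5 weeks was below 0 at every later age, where that of BBC3 was above 0, while both means were higher at 27 than at 20 weeks and lower again at 39 weeks. The 5 libraries of 5 weeks held 8.12, 8.19, 9.39, 9.46 and 10.3 CPM, those of 20 weeks 3.96, 5.96, 6.75, 6.99 and 7.19 CPM, and those of 39 weeks 4.88, 5.48, 5.70, 6.58 and 6.71 CPM. Neither later age overlapped with 5 weeks. At 12 weeks the range was 5.41 to 8.79 CPM and at 27 weeks 5.57 to 9.09 CPM, each of which reached into that of 5 weeks. The 5-week level was 1.47 times that of 20 weeks (log2 fold change -0.56, SE 0.16, adjusted p = 0.0107) and 1.54 times that of 39 weeks (-0.63, SE 0.16, adjusted p = 0.00378), and both calls held in every alternative. The step to 12 weeks did not pass (-0.42, SE 0.16, adjusted p = 0.0619). It passed with library totals alone (0.0393), in a fit of the 2 ages (0.0386), with DESeq2 (0.0471), with limma on RPKM (0.0400), without replicate 3 of 12 weeks (0.0225), the high library of that age, and without replicate 2 of 20 weeks (0.0348). The step from 5 to 27 weeks did not pass either (-0.30, SE 0.16, adjusted p = 0.146). The call over all ages was lost without replicate 3 of 5 weeks (0.0513) and without the 6 w0w1 libraries (0.0853). BAD (2 OF 2) had the lowest counts of the members, 69 to 192 reads per library, and no neighbours in the order of its means (39, 20, 12, 27 and 5 weeks) passed the test.

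APAF1 (Nofu_gene_3_0000888), the scaffold of the apoptosome, fell the most of the 8 members from 5 to 39 weeks. At 5 weeks the libraries held 20.2, 23.5, 23.6, 25.5 and 29.0 CPM. At 12 weeks they held 16.5, 16.5, 17.4, 17.9 and 18.6 CPM, and at 20 weeks 10.1, 12.9, 14.2, 15.8 and 18.1 CPM. The libraries of 27 weeks were within 1 CPM of each other, from 15.7 to 16.7 CPM, and those of 39 weeks held 7.88, 10.3, 12.6, 12.9 and 13.5 CPM. All 20 later libraries were below all 5 libraries of 5 weeks, and the libraries of 39 weeks were also below all those of 12 and of 27 weeks. The 5-week level was 1.40 times that of 12 weeks (log2 fold change -0.49, SE 0.13, adjusted p = 0.0104), 1.71 times that of 20 weeks (-0.77, SE 0.13, adjusted p = 0.000135), 1.51 times that of 27 weeks (-0.59, SE 0.13, adjusted p = 0.00141) and 2.12 times that of 39 weeks (-1.09, SE 0.14, adjusted p = 1.43e-06).

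APAF1 was also the one member that passed between 2 ages of the adult. From 12 to 39 weeks it fell by 0.60 on the log2 scale (SE 0.14, adjusted p = 0.00739), 1.51 times higher at 12 weeks. Its difference from 27 to 39 weeks did not pass (-0.49, SE 0.14, adjusted p = 0.0651), and passed with DESeq2 (0.0191) and without replicate 2 of 20 weeks (0.0435), replicate 5 of 27 weeks (0.0420) or replicate 3 of 39 weeks (0.0258). Without the 6 w0w1 libraries the calls from 5 to 12 weeks (0.0781) and from 12 to 39 weeks (0.0823) were lost, whereas those from 5 to 20, 27 and 39 weeks held in every alternative. In the order of the means (39, 20, 27, 12 and 5 weeks) only the neighbours 12 and 5 weeks passed the test.

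**Figure D2:**
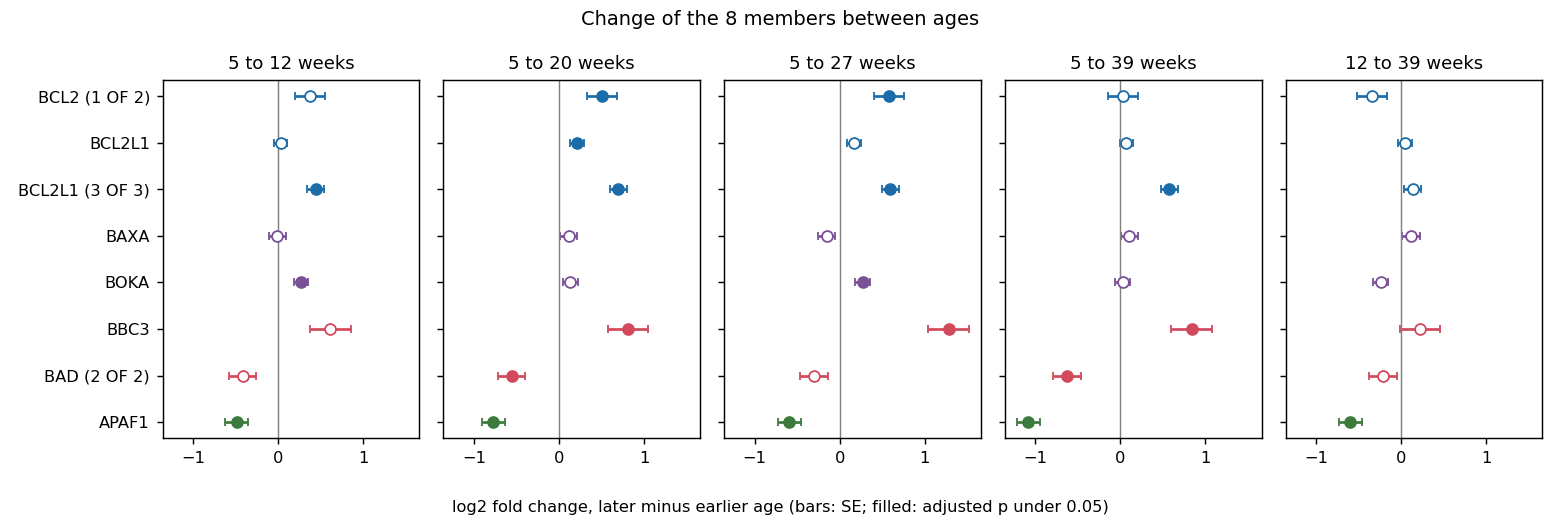
Log2 fold change of each member (y axis) in 5 comparisons of ages (panels; x axis, later minus earlier age), with bars of 1 SE; filled points passed at an adjusted p under 0.05. APAF1 is at -1.09 from 5 to 39 weeks and -0.60 from 12 to 39 weeks, and BBC3 reaches 1.28 from 5 to 27 weeks.

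Counted by comparison, 3 of 8 members passed from 5 to 12 weeks, where 23.6% of all genes tested did. Of these, 2 were higher at 12 weeks and 1 lower, beside 10.6% and 13.0% of all genes. From 5 to 20 weeks 6 members passed (31.9% of all genes), 4 of them higher (15.4%) and 2 lower (16.5%). Without the 6 w0w1 libraries 3 members passed there, beside 3874 of 16587 genes, where 5252 of 16484 had passed with them. From 5 to 27 weeks 5 passed (35.4%), 4 of them higher (16.8%) and 1 lower (18.6%). From 5 to 39 weeks 4 passed (36.6%), 2 of them higher (18.0%) and 2 lower (18.7%). The libraries of the 2 ages did not overlap for 2, 4, 3 and 4 members in these comparisons, beside 17.0%, 19.8%, 22.4% and 24.2% of all genes. The members' median log2 fold change from 5 to 39 weeks was 0.05, and that of all genes 0.01. Nothing particular to the family is read from these shares.

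Between adult ages 1 member passed, APAF1, which was lower at 39 than at 12 weeks. In that pair 12.5% of all genes passed, 6.76% of all genes being lower, and in the other 5 adult pairs less than 1% did. APAF1 was also the 1 member whose libraries did not overlap there (8.86% of all genes) and from 27 to 39 weeks (3.31%), as BCL2L1 was from 12 to 20 weeks (1.68%). In the other adult pairs no member passed by edgeR. There the adjusted threshold was passed by 0.0485% of all genes from 12 to 20 weeks, 0.0303% from 12 to 27 weeks, 0.00% from 20 to 27 weeks, 0.267% from 20 to 39 weeks and 0.989% from 27 to 39 weeks. At an unadjusted p under 0.05 there were 3 members from 12 to 20 weeks, beside 9.81% of all genes at that same unadjusted threshold, 1 from 12 to 27 weeks (11.7%), 1 from 20 to 27 weeks (9.69%), 2 from 20 to 39 weeks (17.1%) and 4 from 27 to 39 weeks (21.4%). With DESeq2, 2 members passed from 27 to 39 weeks, BCL2 (1 OF 2) and APAF1, beside 942 of the 16470 genes it tested. From 12 to 39 weeks 2 passed, BOKA and APAF1, beside 2539 of 16470 genes. In the other 4 adult pairs DESeq2 passed 0 members, beside 21 to 520 of 16470 genes.

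The study looked for genes that turn in mid-life, and 4 of the 8 members had a curved course by the test of a squared term of age. All 4 were bell-shaped, where 20.8% of all genes passed and 8.65% passed with a bell shape. BCL2L1 (3 OF 3) (adjusted p = 0.00204) had its fitted peak at 27.8 weeks, BCL2 (1 OF 2) (0.00426) at 22.1 weeks, BBC3 (0.0143) at 28.7 weeks and BOKA (0.0321) at 21.9 weeks. This group holds survival genes, a pore former and a BH3-only gene. The curves of BCL2 (1 OF 2) and BCL2L1 (3 OF 3) held in every alternative. That of BBC3 was lost without the 6 w0w1 libraries (0.0930), and that of BOKA in 8 alternatives: library totals alone (0.0534), limma on RPKM (0.0909), no w0w1 libraries (0.0544), and without replicate 1 (0.0888) or 3 (0.0630) of 5 weeks, 1 (0.0521) or 3 (0.0513) of 27 weeks, or 1 of 39 weeks (0.0657). BCL2L1 did not pass (0.0728) and passed without replicate 5 of 27 weeks (0.0391) or replicate 2 of 39 weeks (0.0449). A bell in the fit does not show a fall after the peak, since no member with a bell differed between 27 and 39 weeks by edgeR. The peak weeks come from a separate least-squares quadratic curve of log2 CPM, not from the edgeR model. They need not fall at the age of the highest mean. For BCL2L1 (3 OF 3) that age was 20 weeks (38.0 CPM, beside 35.4 CPM at 27 weeks), and for BCL2 (1 OF 2), BBC3 and BOKA it was 27 weeks.

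Across the 25 libraries, the levels of BAD (2 OF 2) and APAF1 were the most alike of the 28 pairs of members (Pearson's r of log2 CPM 0.79), and 0.62 once each value was taken as its deviation from the mean of its age. BCL2L1 (3 OF 3) and BBC3 followed with 0.73 and 0.54. The most opposed pair was BCL2L1 (3 OF 3) and APAF1, at -0.66, which went to -0.03 within ages. In all, 17 pairs were above 0 and 11 below, with a median of 0.05. These values are descriptions, given without a test, and the points share libraries, depth and age. BAXA was below 0 with 5 of the 7 other members, and above 0 with both copies of BCL2L1.

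**Figure D3:**
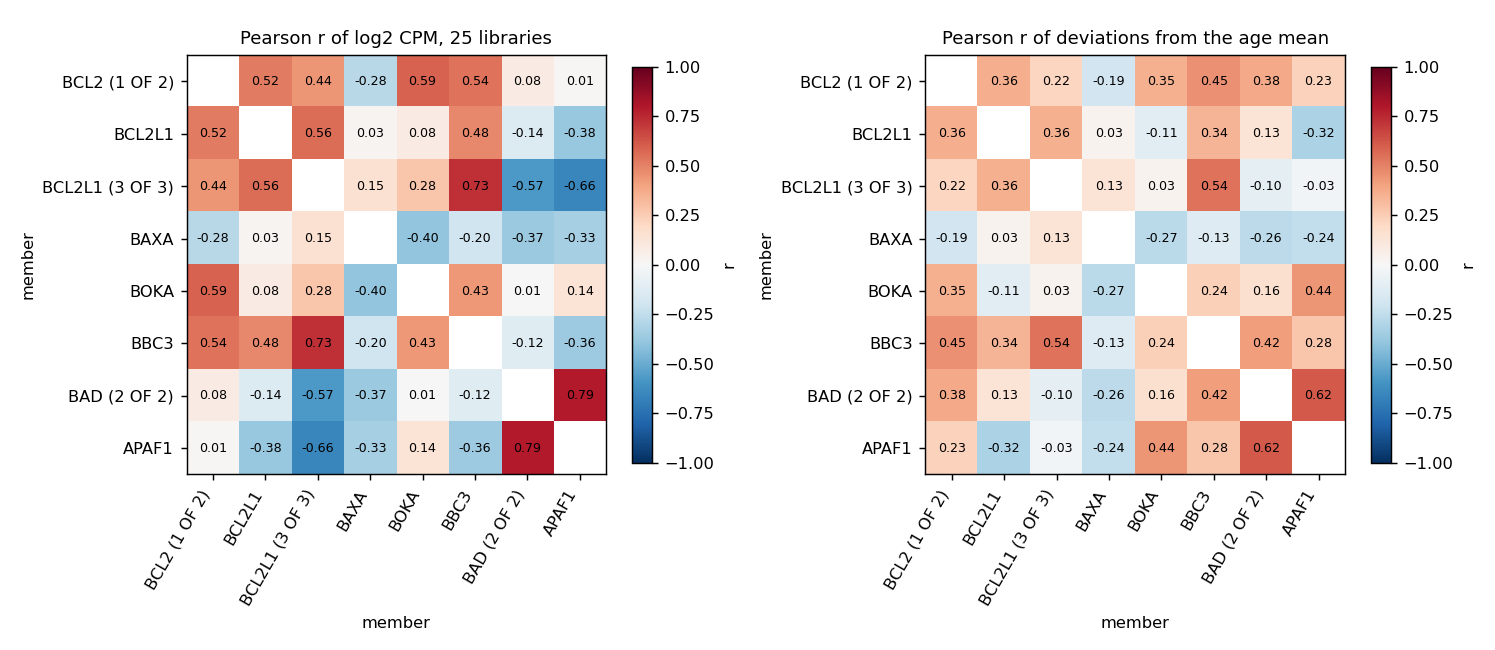
Pearson's r between pairs of members over 25 libraries, for log2 CPM (left) and for deviations from the mean of each age (right); the color gives r from -1 to 1. BAD (2 OF 2) and APAF1 stand at 0.79 and 0.62, and BCL2L1 (3 OF 3) and APAF1 at -0.66 and -0.03.

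Among 1904 named genes tested, those most like each member over the 25 libraries were as follows, again as a description. The names used here cover only an early part of the alphabet, so most of the 16484 genes tested were not searched. BCL2L1 (3 OF 3) was closest to BECN1 (r = 0.92), whose product Beclin 1 starts autophagy and carries a BH3 domain, and to ATG13 (0.91), a part of the complex that starts autophagy. BBC3 was closest to ARRB1 (0.91), a beta-arrestin that quenches receptor signals, and AKAP7 (0.90), an anchor of protein kinase A. APAF1 was closest to ALCAMB (0.89), a cell adhesion gene, and ATF5 (1 OF 2) (0.89), a transcription factor. BAD (2 OF 2) was closest to ANKRD27 (0.86) and ARHGAP40 (0.81), and BCL2 (1 OF 2) to AGAP3 (2 OF 2) (0.86) and ARHGAP44 (1 OF 2) (0.86). BOKA was closest to ACSS3 (0.83) and C18H16ORF70 (0.82). BCL2L1 (ARPP19A, 0.74, and C1ORF109, 0.72) and BAXA (C11H19ORF42, 0.62, and ADSS, 0.59) had the least close companions. For deviations from the age mean, r of these pairs ran from 0.42 (BAXA and ADSS) to 0.84 (BBC3 and AKAP7). For APAF1 it was 0.53 with ALCAMB and 0.56 with ATF5 (1 OF 2).

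Further genes of the pathway were counted by lists, from 5 to 39 weeks. For every list below, the share of all genes tested that passed in this comparison was 36.6%, with 18.0% higher and 18.7% lower. The lists are short, and nothing particular to a list is read from its count. Of 4 other BCL2 family and BH3 genes, 1 fell and 1 rose (list median log2 0.15, beside 0.01 for all genes). BCL2L10, a further relative of BCL2, went from 24.5 to 33.0 CPM at 5 weeks to 16.9 to 19.7 CPM at 39 weeks, without overlap (log2 fold change -0.63, adjusted p = 4.32e-05). BCL2L13, a mitochondrial relative that acts as a mitophagy receptor in mammals, rose from 42.9 to 52.8 CPM to 49.8 to 76.3 CPM (0.43, adjusted p = 0.00134), and it also rose from 12 to 39 weeks (0.44, adjusted p = 0.00676).

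Of 6 BH3-like genes of mitophagy, autophagy and the endoplasmic reticulum, 4 rose from 5 to 39 weeks and none fell (list median 0.63). Of all genes tested, 18.0% rose and 18.7% fell. The same 4 had passed, all higher, by 12 weeks, beside 10.6% of all genes. BNIP3L (1 OF 2) rose from 114 to 214 CPM at 5 weeks to 208 to 429 CPM at 39 weeks (log2 1.12, adjusted p = 1.51e-05), and its copy BNIP3L (2 OF 2) from 85.7 to 119 CPM to 141 to 191 CPM (0.73, adjusted p = 7.24e-06). Both encode NIX, a receptor that hands mitochondria to autophagy. BNIP3, a receptor of the same kind, rose from 73.5 to 95.8 CPM to 123 to 140 CPM (0.68, adjusted p = 2.46e-05). BECN1 rose from 43.0 to 54.9 CPM to 66.9 to 75.5 CPM (0.58, adjusted p = 6.62e-06). Between 12 and 39 weeks no gene of this list passed, where 12.5% of all genes did.

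Of 7 inhibitors of apoptosis and apoptosome partners, 6 passed the filter, and 2 of these fell from 5 to 39 weeks and none rose (list median 0.00). BIRC6, a large ubiquitin ligase that restrains caspases, went from 9.02 to 15.3 CPM to 4.41 to 8.66 CPM (log2 fold change -0.90, adjusted p = 0.000743), and API5 from 89.9 to 124 CPM to 75.9 to 97.8 CPM (-0.33, adjusted p = 0.00732). From 12 to 39 weeks BIRC6 was again lower (-0.63, adjusted p = 0.0342), and BFAR, an endoplasmic reticulum protein that binds BCL2 in mammals, was higher (0.24, adjusted p = 0.0388).

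Of 6 BAG co-chaperones, which take their name from a BCL2-binding founder, 3 rose and 2 fell from 5 to 39 weeks (list median 0.09). BAG3, which steers damaged proteins to autophagy, rose from 21.0 to 28.6 CPM to 33.8 to 42.3 CPM (log2 0.63, adjusted p = 3.38e-05). BAG4 rose (0.40, adjusted p = 0.00302), whereas BAG5 (-0.56, adjusted p = 0.00226) and BAG6 (-0.21, adjusted p = 0.0202) fell. From 12 to 39 weeks BAG4 was again higher (0.37, adjusted p = 0.0197, edgeR) and BAG5 again lower (-0.46, adjusted p = 0.0298). In that pair 12.5% of all genes passed.

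Of 8 other death effectors only AIFM1 passed. It encodes a mitochondrial flavoprotein that can leave the mitochondrion in caspase-independent death, and it went from 104 to 141 CPM at 5 weeks to 69.9 to 102 CPM at 39 weeks (log2 fold change -0.58, adjusted p = 0.00234). Of 7 upstream kinases and stress factors, 2 rose and 2 fell (list median -0.03). ATF4 (1 OF 2), a stress response factor, fell from 252 to 311 CPM to 178 to 211 CPM (-0.51, adjusted p = 7.58e-05), and ATM, a DNA damage kinase, from 42.9 to 61.6 CPM to 28.5 to 38.2 CPM (-0.53, adjusted p = 0.000965). ATF3, which is induced by stress, rose from 2.68 to 5.15 CPM to 3.97 to 9.03 CPM (0.81, adjusted p = 0.0246). ATF4B2, named for the same factor as ATF4, rose from 204 to 279 CPM to 257 to 417 CPM (0.40, adjusted p = 0.0324).

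**Figure D4:**
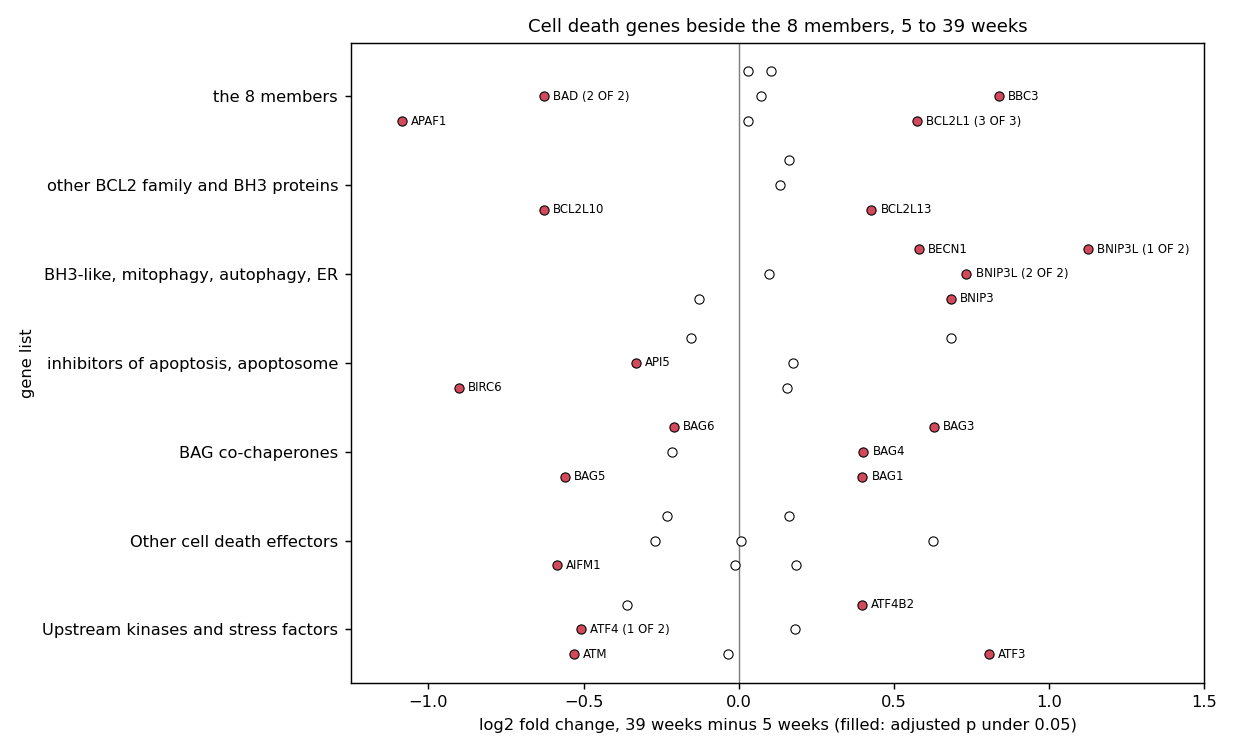
Log2 fold change from 5 to 39 weeks (x axis) of the 8 members and of the genes of the 6 lists that passed the filter (rows; height within a row only separates the points); filled points passed at an adjusted p under 0.05 and carry their names. In the BH3-like row all 4 filled points are above 0, from 0.58 to 1.12.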

How the data were processed

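The authors mapped single reads (Illumina TruSeq RNA v2 libraries, a kit that does not mark strand) with Bowtie to transcript contigs and deposited whole-number counts of uniquely mapped reads per contig. The RPKM values were computed by the authors per contig length and library total. Further tools listed in the submitters' processing notes, without a role, are featureCounts 1.4.3-p1, TopHat2 2.0.6 and CASAVA. A later pair of tables was not used here, as its identifiers could not be paired with names. Contig names came from the held part of the study's naming table, whose RPKM shares over the 5 ages matched 1 contig each within 3e-06 for 1994 of 1999 names. The absolute RPKM of both tables was within 10% for 184 of the 1994, so the contig length behind RPKM is uncertain, no levels were compared between genes, and RPKM served only within a gene.

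Counts were tested with edgeR 4.0.16 (R 4.3.3; TMM, filterByExpr by age, robust quasi-likelihood F-test), in 1 model of the 25 libraries, for 10 pairs of ages, for all ages together and, in a second model, for the squared term of age. P-values were adjusted by the Benjamini-Hochberg method over 16484 genes within each comparison, and an adjusted p under 0.05 passed. Log2 CPM used a prior count of 2, and the SE of a log2 fold change is its size divided by the square root of F. Steps were tested on simulated counts with known changes. The simulation gave every gene the same spread setting, whereas the spread of the real data differed between genes. Alternatives were RLE factors, library totals alone, no filter, DESeq2 1.42.0, only the 2 ages compared, limma 3.58.1 on log2(RPKM + 0.1) for genes with a mean RPKM of at least 0.1, w0w1 as a factor, without the 6 w0w1 libraries, and each library left out. Replicates are separate animals, numbered within an age by order of deposit. The members and the gene and marker lists were chosen with earlier results of these data known. Values are named for listed genes that passed, up to 4 a list by adjusted p, and for the 2 named genes with the highest r to each member. Some listed items are not reported here.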

Additional observations from a re-analysis of the deposited data

Results flagged for a closer look

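For BCL2 (1 OF 2), replicate 5 of 27 weeks stood apart from the other 4 libraries of that age on the log2 scale, at 2.91 log2 CPM where the others ran from 3.51 to 3.73. The gap was 0.72 of the range, beside a critical value of 0.71 for 5 values in Dixon's test. On the CPM scale neither this nor any other library of a member passed that value in the 40 groups of 5 libraries examined, and on the log2 scale this was the 1 group that did, where chance alone gives about 1 in 20. Without this library the difference of BCL2 (1 OF 2) from 27 to 39 weeks passed (adjusted p = 0.0265, edgeR), as given above.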

How the results depend on the processing

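No called result changed direction in any alternative, and 17 of the 29 called results on single members held in every alternative run. From 5 to 12 weeks 3 members passed, beside 3888 of 16484 genes. In a fit of these 2 ages alone 5 passed (4230 of 16074 genes), as with DESeq2 (4270 of 16470). Without single libraries the count of members ran from 2 to 5. The count of all genes moved as well, for example to 2674 of 16539 without replicate 1 of 5 weeks. From 12 to 39 weeks 1 member passed, beside 2057 of 16484 genes. Without the 6 w0w1 libraries 0 passed (388 of 16587 genes), with DESeq2 2 passed (2539 of 16470), and without single libraries 1 to 2. The squared term passed for 4 members (3435 of 16484 genes), and for 2 without the w0w1 libraries (2010 of 16587 genes). The cause of these differences was not tested, but the setting without the w0w1 libraries also has fewer libraries. With w0w1 as a factor and all libraries kept, no call on a single member was lost. In that setting 2031 of 16484 genes passed from 12 to 39 weeks. From 5 to 20 weeks 6 members passed (5252 of 16484 genes), and 3 without the w0w1 libraries (3874 of 16587 genes). The alternatives of this count were chosen after seeing the data, as were those from 5 to 27 weeks (5). Nothing particular to the members is read from these counts. The counts for all ages (6), from 5 to 27 weeks and from 5 to 39 weeks (4) stayed within 1.5 times.

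Of the 67 results on single members that did not pass, 10 changed sign in at least 1 alternative and 9 passed in at least 1. With library totals alone and with limma on RPKM the sign changed for BCL2 (1 OF 2) from 5 to 39 weeks (-0.011 and -0.046 on the log2 scale), BCL2L1 from 5 to 12 weeks (-0.013 and -0.016) and BOKA from 5 to 39 weeks (-0.010 and -0.018). BOKA from 12 to 27 weeks was at 0.0013 and went to -0.0040 with RLE factors, -0.017 with w0w1 as a factor, -0.015 without the w0w1 libraries and -0.0055 with DESeq2. None of the results that changed sign passed in the alternative that turned it. Without single libraries the log2 fold change ran from -0.17 to 0.12 for BCL2 (1 OF 2) and from -0.016 to 0.085 for BOKA from 5 to 39 weeks, from -0.0010 to 0.061 for BCL2L1 and from -0.072 to 0.035 for BAXA from 5 to 12 weeks, from -0.0015 to 0.095 for BCL2L1 from 12 to 39 weeks, from -0.094 to 0.0029 for BCL2L1 from 20 to 27 weeks, from -0.080 to 0.030 for BAXA and from -0.14 to 0.23 for BBC3 from 20 to 39 weeks, from -0.049 to 0.050 for BOKA from 12 to 27 weeks, and from -0.078 to 0.081 for BCL2L1 (3 OF 3) from 27 to 39 weeks.

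The later deposited count table was planned as an alternative and was not run, since its identifiers could not be paired with names. No paired analysis was possible because each library came from a separate animal, sampled at a single age. The lowest counts of a member, 69 to 192 reads per library for BAD (2 OF 2), limit the precision of small differences.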

Other observations

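BMF2, a BH3-only gene outside the members and named here because its values stood out once seen, ranged from 4.97 to 41.9 CPM at 5 weeks and from 1.54 to 62.5 CPM at 39 weeks, and did not pass for age (adjusted p = 0.955, edgeR). BAG1, which passed from 5 to 39 weeks beside the genes given above, rose by 0.40 on the log2 scale (adjusted p = 0.0347).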
